A study of Mus musculus with 2 samples.

Results

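Of 19550 genes in the count table, 9 are described here. They are 5 genes for secreted antagonists of bone morphogenetic proteins (BMPs), *Grem1*, *Nog*, *Fst*, *Chrdl1* and *Bmper*, and the 4 genes of the Id family, *Id1*, *Id2*, *Id3* and *Id4*. They were chosen by name, and the antagonists were read mainly in the mesenchyme and the Id genes mainly in the epithelium. The cells came from the esophagus, the gastroesophageal squamocolumnar junction (GE-SCJ) and the stomach of wild-type C57BL/6 mice at embryonic day 15 (E15), E19, 2 days after birth (pup) and 8 weeks of age (adult). All groups share this genotype, no treatment is named, and the groups are set by region, stage and cell class. Each region and stage carried its own oligonucleotide tag (10x Genomics 3′ CellPlex), mice were pooled within a tag, and the cells were sequenced together. For the number of mice, the series' design gives 6 at E15, 2 at E19, 2 pups and 3 adults, and the study's methods speak of 3 mice combined. No cell carries the label of a mouse, and each group is therefore a single sample without replicates.

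BMPs are secreted ligands that act through serine/threonine kinase receptors, which phosphorylate SMAD proteins that then enter the nucleus. Gremlin (*Grem1*), noggin (*Nog*) and chordin-like 1 (*Chrdl1*) bind BMPs outside the cell and keep them from their receptors, follistatin (*Fst*) binds activins and some BMPs, and BMPER (*Bmper*) can lower or raise BMP activity depending on the setting. The Id genes encode helix-loop-helix proteins without a DNA-binding region that hold E proteins away from DNA, and they are among the best-known direct targets of BMP signaling. In the gut, antagonists made by mesenchymal cells are known to limit BMP activity next to epithelial stem cells. In the foregut, noggin is needed for the esophagus to separate from the airway.

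The pool held 7808 cells in 11 region and stage groups of 143 to 1403 cells, with a median of 10424.5 unique molecular identifiers (UMIs) per cell. Adult stomach was not analysed here. By the authors' labels, 3442 cells were fibroblasts (the label Stromal), 1027 smooth muscle, 730 squamous and 1540 columnar. In groups of at least 15 cells, the summed markers of each of these classes were higher than those of any other class, in 11 of 11 groups of fibroblasts, 11 of 11 of smooth muscle, 8 of 8 of squamous and 8 of 8 of columnar cells. Cell by cell, the class by markers was that of the label in 96.1% of fibroblasts, 86.3% of smooth muscle, 92.2% of squamous and 98.9% of columnar cells. Cells labelled smooth muscle also carried stromal markers, whose summed level was 3428 to 4944 CPM (a unit defined in the next paragraph) before birth and 3865 to 10719.6 in the pup. Their *Rgs5*, a pericyte gene that was looked up after the levels were seen, was at 10.8 to 72.0 CPM before birth, 78.5 to 1759 in the pup and 3157 in the adult esophagus. In fibroblasts *Rgs5* was at 73.5 to 245 CPM before birth, 46.2 to 356 in the pup and 297 in the adult esophagus. The part of these levels in the results on smooth muscle was not tested. In 249 cells (3.19%), most of the 15 nearest neighbours in expression came from the other side of birth than the tag, among them 8 of 15 adult GE-SCJ fibroblasts, 10 of 19 adult GE-SCJ columnar cells, 11 of 22 pup esophageal smooth muscle cells and 12 of 78 pup stomach fibroblasts. Values that move without these cells are given in both forms.

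Levels are in CPM, counts per 1e6 UMIs. For each group of cells, a gene's UMIs were added up and divided by the total of the group, and the exact 95% Poisson interval follows in parentheses. For log2 ratios, 1 UMI was added to each sum, and the interval is the exact 95% one given both counts together. Limits given for sums of 0 are 3 UMIs over the total of the group, or 3 cells over its number of cells. They lie below the upper ends of the exact intervals. These intervals and limits cover counting error only, and no difference was tested. A gene was counted as past 2-fold in a comparison where both groups held at least 20 cells and the gene at least 50 UMIs over both.

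On the GRCm38 build (GENCODE M21), the antagonist genes lie apart from each other: *Grem1* at chr2:113746164-113758646 on the minus strand, *Nog* at chr11:89300638-89302332 (minus), *Fst* at chr13:114452290-114458951 (minus), *Chrdl1* at chrX:143285674-143394262 (minus) and *Bmper* at chr9:23223076-23485200 (plus). The Id genes lie at chr2:152736251-152737410 (*Id1*, plus), chr12:25093799-25097140 (*Id2*, minus), chr4:136143497-136145755 (*Id3*, plus) and chr13:48261228-48266026 (*Id4*, plus). All 9 are annotated as protein-coding. RefSeq promoter sequences on GRCm38.p6 matched 5 of the 9 genes, *Grem1*, *Bmper*, *Id2*, *Id3* and *Id4*. The promoters of an antagonist and an Id gene are shown because SMAD proteins are known to bind GC-rich and CAGAC-type elements, and capitals mark a match to GGCGCC, to GGAGCC or to CAGAC on either strand, read 5′ to 3′ along the gene. The window is the 250 bases before the RefSeq start, chr2:113758649-113758898 (minus) for *Grem1* and chr13:48260866-48261115 (plus) for *Id4*, both outside annotated exons. The RefSeq start is not the gene start given above, and the *Id4* window ends short of that gene start at chr13:48261228.
Grem1: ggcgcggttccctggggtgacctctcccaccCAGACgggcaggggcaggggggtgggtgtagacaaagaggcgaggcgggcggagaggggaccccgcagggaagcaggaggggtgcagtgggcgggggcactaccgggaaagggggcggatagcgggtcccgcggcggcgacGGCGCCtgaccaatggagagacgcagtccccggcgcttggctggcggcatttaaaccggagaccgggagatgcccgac
Id4: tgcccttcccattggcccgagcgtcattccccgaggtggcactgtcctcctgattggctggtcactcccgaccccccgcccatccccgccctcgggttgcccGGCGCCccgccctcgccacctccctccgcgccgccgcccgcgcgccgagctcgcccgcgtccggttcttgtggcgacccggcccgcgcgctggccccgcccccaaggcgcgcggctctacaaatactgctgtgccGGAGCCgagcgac

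The *Grem1* window holds GGCGCC at 78 to 73 bases before the start and CAGAC at 219 to 215, and the *Id4* window holds GGCGCC at 148 to 143 and GGAGCC at 13 to 8. The *Bmper* window, also outside exons, holds 3 GGAGCC. The windows of *Id2* and *Id3* lie in annotated exons over 161 and 250 of their 250 bases and are not described. Of all 32851 promoters of this length, 9.59% hold GGCGCC, 26.0% GGAGCC and 42.2% CAGAC. A match of letters is a description of the window and no evidence of binding. The windows of *Grem1*, *Bmper* and *Id4* were 71.6% to 75.6% G and C, against a median of 52.4% over all promoters.

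Across the pool, the 5 antagonists were genes of the mesenchyme, and the smooth muscle label held the highest level of *Grem1*, *Nog*, *Fst* and *Chrdl1* among the classes (heatmap of levels by cell class). *Grem1* was at 84.6 CPM in smooth muscle, 13.3 in fibroblasts, 0.934 in squamous, 0.347 in columnar and 0.531 in immune cells. *Chrdl1* was at 80.1 CPM in smooth muscle, 27.7 in fibroblasts, 0.841 in squamous, 1.34 in columnar and 1.06 in immune cells. *Fst* was at 142 CPM in smooth muscle, 24.6 in fibroblasts, 10.1 in squamous, 0.810 in columnar and 6.11 in immune cells. *Nog* was at 19.6 CPM in smooth muscle and 2.93 in fibroblasts, and *Bmper* at 13.6 and 2.62, and *Nog* had 0 UMIs in 730 squamous cells, which allows a share of cells with a UMI of up to 0.411%. *Bmper* was highest under the second stromal label, at 52.9 CPM, where *Fst* was at 96.1. Smooth muscle, 1027 of the 7808 cells, held 65.8% of all *Grem1* UMIs of the pool, 66.8% of *Nog*, 56.9% of *Fst*, 46.1% of *Chrdl1* and 46.8% of *Bmper*.

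The Id genes were detected in every class, but at different levels. *Id1* was at 272 CPM in columnar cells, 168 in smooth muscle, 101 in fibroblasts and 86.6 in squamous cells. *Id2* was at 608 CPM in smooth muscle, 246 in columnar, 197 in squamous cells and 169.6 in fibroblasts. *Id3* was at 358 CPM in smooth muscle, 345 in fibroblasts, 202 in columnar and 65.8 in squamous cells, and at 549 in endothelial cells. *Id4* was at 116 CPM in smooth muscle, 39.6 in columnar cells, 18.98 in fibroblasts and 10.5 in squamous cells, and at 241 under the second stromal label. Thus 1 Id gene, *Id1*, was higher in columnar cells than in the other 3 main classes, and the other 3 Id genes were highest in smooth muscle.

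**Figure D1:**
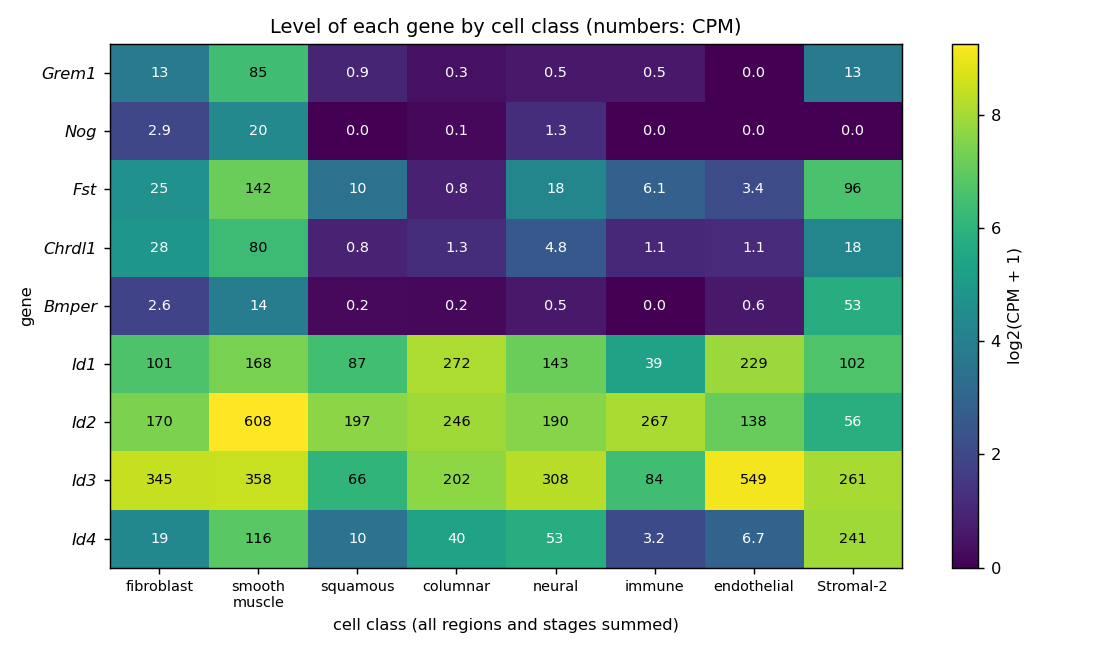
Level of the 9 genes (rows) in 8 cell classes (columns), summed over all regions and stages. Colour is log2(CPM + 1) and the printed values are CPM. The antagonists are lit in smooth muscle and fibroblasts and near 0 in epithelium, whereas the Id genes are present in each class.

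Whether the antagonists are made on the mesenchymal side of the tissue was asked by comparing fibroblasts with the epithelium of the same region and stage, in 13 pairs of groups. Of 65 combinations of gene and pair, 23 reached 50 UMIs, and in 21 of these the antagonist was past 2-fold higher in fibroblasts, with 0 higher in epithelium. Over all genes, 23.2% of the combinations were past 2-fold higher in fibroblasts and 12.1% in epithelium. The antagonists passed the minimum of UMIs mainly through the fibroblasts, where they are high, so this count describes only those that passed. The 21 ratios above 2-fold ran from 3.11-fold for *Chrdl1* against GE-SCJ columnar cells at E15, with 61 against 6 UMIs, to 409-fold for *Grem1* against GE-SCJ columnar cells of the pup, with 58 against 2 UMIs (log2 ratio 8.68, 7.06 to 11.00). Each fibroblast group of the GE-SCJ was compared with both its squamous and its columnar cells, so these pairs share a group. Where the epithelium had no UMI, the ratio is a bound against 3 UMIs over the group: *Fst* in GE-SCJ fibroblasts at E15 was at least 7.20-fold higher than in the 47 squamous cells, and *Grem1* at E19 at least 1.95-fold higher than in the 34 squamous cells.

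*Fst* was the antagonist with a level in squamous epithelium. It was at 8.14 CPM (3.52 to 16.04) in esophageal squamous cells at E15, 3.51 (1.29 to 7.64) at E19, 3.08 (0.636 to 9.01) in the pup and 26.8 (21.4 to 33.1) in the adult. The adult level is near that of the adult esophageal fibroblasts, 37.1 (13.6 to 80.8, 6 UMIs in 31 cells), with a log2 ratio of fibroblasts over squamous cells of 0.68 (−0.68 to 1.78). The 86 adult UMIs came from 28 of 232 cells, and 49 of them from 4 cells. The 28 cells with *Fst* had more of the basal-layer keratins *Krt5* (2728 against 1135 CPM in the 204 cells without it), *Krt14* (1662 against 514) and *Krt15* (3271 against 1367), and less *Krt13*, a keratin of the upper layers (2332 against 30651). In adult GE-SCJ squamous cells *Fst* was at 2.58 CPM (0.702 to 6.597). These cells were grouped by *Fst* itself after its levels were seen, and the comparison is a description.

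**Figure D2:**
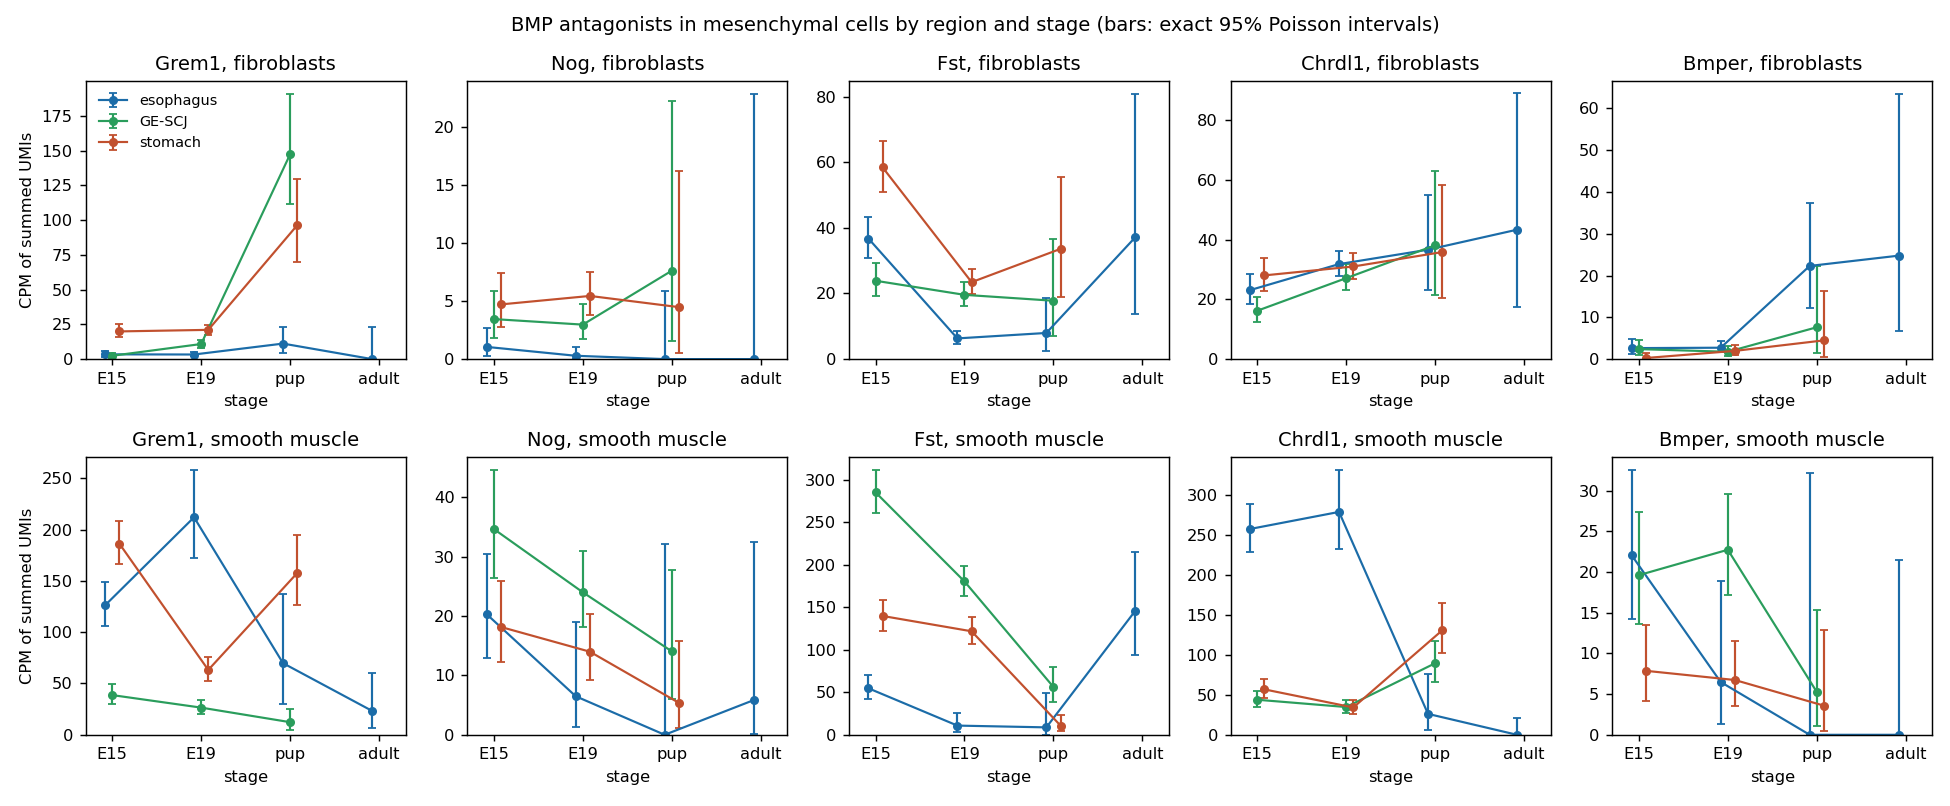
CPM of the 5 antagonists (columns of panels) in fibroblasts (top) and smooth muscle (bottom) by stage, with esophagus in blue, GE-SCJ in green and stomach in red, and bars for exact 95% Poisson intervals. The y axes differ between panels and start at 0. *Grem1* rises in GE-SCJ and stomach fibroblasts in the pup and stays low in esophageal fibroblasts, while *Chrdl1* stands at 258 and 279 CPM in esophageal smooth muscle before birth.

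Within the mesenchyme, smooth muscle and fibroblasts of the same region and stage were compared in 10 pairs. Of 50 combinations, 25 reached 50 UMIs, of which 20 were past 2-fold higher in smooth muscle and 1 in fibroblasts, against a background over all genes of 6.45% higher in smooth muscle and 11.8% higher in fibroblasts. Several of the 25 reached the minimum mainly through smooth muscle, such as *Grem1* in the GE-SCJ at E15 with 67 against 9 UMIs, so the count describes only those that passed. The differences were largest for *Grem1* in the esophagus. Esophageal smooth muscle held *Grem1* at 126 CPM (106 to 149) at E15 and 212 (172 to 258) at E19, against 3.41 (1.82 to 5.84) and 3.295 (2.09 to 4.94) in esophageal fibroblasts, which is 34.6-fold (log2 ratio 5.11, 4.32 to 6.02) and 62.3-fold (5.96, 5.31 to 6.67). In the stomach it was at 186 CPM (166 to 208) and 63.2 (52.5 to 75.4) in smooth muscle against 19.9 (15.7 to 24.9) and 21.0 (17.7 to 24.8) in fibroblasts, or 9.27-fold at E15 and 3.01-fold at E19. In the GE-SCJ it was at 38.7 CPM (29.97 to 49.1) and 26.5 (20.4 to 33.8) against 2.39 (1.09 to 4.53) and 10.8 (8.31 to 13.9), or 14.8-fold and 2.44-fold. All 6 prenatal pairs thus had more *Grem1* in smooth muscle, with intervals that did not overlap. Without 3 esophageal fibroblasts of E19 with mostly postnatal neighbours, the level there was 1.87 CPM instead of 3.295.

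In the pup the order of *Grem1* differed by region. GE-SCJ fibroblasts held 147 CPM (112 to 190.5) and GE-SCJ smooth muscle 12.3 (4.94 to 25.3), so fibroblasts were 10.7-fold higher (log2 ratio of smooth muscle over fibroblasts −3.42, −4.69 to −2.34). Among the 25 combinations with 50 UMIs, this was the 1 past 2-fold higher in fibroblasts. Below that minimum, *Fst* in the pup stomach was at 10.7 CPM in smooth muscle and 33.6 in fibroblasts (6 and 15 UMIs), and *Bmper* in the pup esophagus had 0 and 14 UMIs. *Rgs5* was at 637 CPM in the smooth muscle and 356 in the fibroblasts of the pup GE-SCJ, and at 1759 and 352 in those of the pup stomach. Its part in the *Grem1* levels was not tested. In the pup stomach, smooth muscle was at 158 CPM (126 to 194) and fibroblasts at 96.3 (69.7 to 129.7), with a log2 ratio of 0.69 (0.16 to 1.25). In the pup esophagus, 22 smooth muscle cells were at 69.8 CPM (30.1 to 138, 8 UMIs) and 151 fibroblasts at 11.1 (4.48 to 23.0, 7 UMIs), below the minimum of UMIs. The adult esophagus had 4 *Grem1* UMIs in 30 smooth muscle cells (23.3 CPM) and 0 in 31 fibroblasts, which allows a level of up to 18.6 CPM.

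*Chrdl1* in smooth muscle was highest in the prenatal esophagus. It was at 258 CPM (229 to 289) at E15 and 279 (233 to 331) at E19 in esophageal smooth muscle, against 23.1 (18.5 to 28.5) and 31.8 (27.8 to 36.3) in esophageal fibroblasts, or 11.1-fold and 8.80-fold. In the GE-SCJ and the stomach before birth it was at 34.2 to 56.9 CPM in smooth muscle and 16.2 to 31.0 in fibroblasts, and the log2 ratios were 1.43 (0.93 to 1.94) and 0.37 (−0.03 to 0.76) in the GE-SCJ and 1.02 (0.61 to 1.43) and 0.16 (−0.26 to 0.56) in the stomach, for E15 and E19. The prenatal difference outside the esophagus was thus smaller, and at E19 the intervals included 0. In the pup it was at 26.2 CPM (5.40 to 76.5) in esophageal smooth muscle, 89.5 (66.7 to 118) in the GE-SCJ and 131 (103 to 164) in the stomach. In fibroblasts *Chrdl1* spanned a narrower range, from 16.2 to 28.0 CPM at E15 to 35.8 to 38.1 in the pup, and 43.3 (17.4 to 89.3) in the adult esophagus.

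*Fst* had its highest level in GE-SCJ smooth muscle, at 285 CPM (261 to 311) at E15 and 180.3 (164 to 198) at E19, against 23.9 (19.2 to 29.3) and 19.6 (16.1 to 23.6) in GE-SCJ fibroblasts, or 11.8-fold and 9.15-fold. In stomach smooth muscle it was at 139.7 (122 to 159) and 122 (107 to 138), or 2.39-fold and 5.18-fold above stomach fibroblasts. In esophageal smooth muscle it was at 54.7 (41.9 to 70.1) and 10.8 (3.51 to 25.2), and the ratio to fibroblasts at E15 was 1.502-fold (log2 ratio 0.59, 0.13 to 1.02). *Fst* and *Chrdl1* therefore had their highest prenatal smooth muscle levels in different regions. By the pup stage *Fst* in smooth muscle was at 56.2 CPM (38.4 to 79.3) in the GE-SCJ and 10.7 (3.94 to 23.4) in the stomach. The 146 CPM in adult esophageal smooth muscle came from 25 UMIs in 2 of 30 cells.

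*Nog* and *Bmper* were low in fibroblasts, at most 7.62 CPM for *Nog* and at most 7.62 for *Bmper* outside the postnatal esophagus. *Nog* in GE-SCJ smooth muscle was at 34.6 CPM (26.4 to 44.6) at E15 and 24.0 (18.2 to 31.0) at E19, or 9.48-fold and 7.75-fold above fibroblasts. In the stomach at E19 it was 2.59-fold above (14.0 against 5.44 CPM). *Bmper* reached 50 UMIs in a single pair, GE-SCJ at E19, where smooth muscle was at 22.7 CPM (17.1 to 29.6) and fibroblasts at 1.75 (0.838 to 3.22), or 12.0-fold. In esophageal fibroblasts *Bmper* was at 2.62 CPM (1.26 to 4.83) at E15, 2.72 (1.64 to 4.25) at E19, 22.3 (12.2 to 37.4, 14 UMIs) in the pup and 24.8 (6.75 to 63.4, 4 UMIs) in the adult. The pup interval lies above both prenatal ones, but rests on 14 UMIs.

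**Figure D3:**
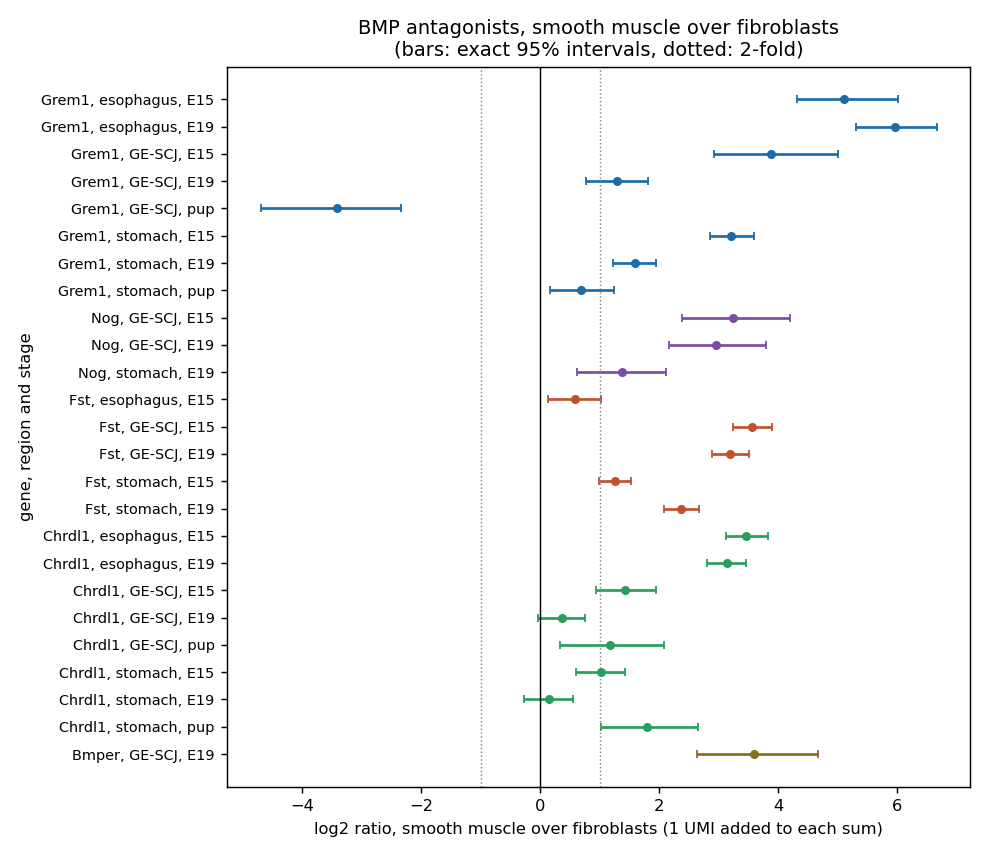
Log2 ratio of smooth muscle over fibroblasts for the 25 combinations of antagonist, region and stage with at least 50 UMIs (rows), with exact 95% intervals as bars, 0 as the solid line and 2-fold as dotted lines. Of these, 20 lie past 2-fold to the right, and 1, *Grem1* in the pup GE-SCJ, to the left.

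The study compares the mesenchyme of the esophagus with that of the stomach. In fibroblasts, 7 of 15 combinations of antagonist and stage reached 50 UMIs, of which 0 were past 2-fold higher in the esophagus and 4 in the stomach. Over all genes 3.11% were higher in the esophagus and 4.02% in the stomach. *Grem1* reached the minimum mainly through the stomach, with 13 against 76, 23 against 139 and 7 against 43 UMIs at E15, E19 and pup. *Grem1* was higher in stomach fibroblasts at each of the 3 stages, 5.49-fold at E15, 6.16-fold at E19 and 7.73-fold in the pup, with log2 ratios of esophagus over stomach of −2.46 (−3.39 to −1.62), −2.62 (−3.31 to −1.99) and −2.95 (−4.25 to −1.85). The fourth was *Fst* at E19, at 6.30 CPM (4.58 to 8.46) in the esophagus and 23.4 (19.9 to 27.4) in the stomach. *Chrdl1* did not separate the organs, with log2 ratios of −0.28 (−0.70 to 0.14) at E15 and 0.04 (−0.24 to 0.32) at E19. Below the minimum, *Bmper* lay higher in the esophagus at E15 (10 against 1 UMI, 2.46, 0.27 to 5.68) and in the pup (14 against 2 UMIs, 1.83, 0.01 to 4.26), and *Nog* higher in the stomach at E19 (2 against 36 UMIs, −3.70, −6.04 to −2.04).

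Smooth muscle of both organs was compared in the same way, a comparison added after the levels were seen. Of 9 combinations with 50 UMIs, 3 were past 2-fold higher in the esophagus and 4 in the stomach, against 3.9% and 6.31% of all genes. Some reached the minimum mainly through the stomach. These were *Fst* at E19 with 5 against 235 UMIs, and *Grem1* and *Chrdl1* in the pup with 8 against 88 and 3 against 73. The count describes only those that passed. *Chrdl1* was 4.50-fold and 8.10-fold higher in the esophagus at E15 and E19 (log2 ratios 2.17, 1.83 to 2.52, and 3.02, 2.58 to 3.47) and 3.80-fold lower in the pup (−1.93, −3.84 to −0.51, from 3 esophageal UMIs). *Fst* was 2.53-fold and 9.42-fold higher in the stomach before birth. *Grem1* was at a log2 ratio of −0.56 (−0.85 to −0.27) at E15, 1.75 (1.35 to 2.14) at E19 and −1.02 (−2.20 to −0.03) in the pup. The pup ratios rest on 22 esophageal cells, of which 11 had mostly prenatal neighbours. Without these, *Grem1* in them was at 108 CPM instead of 69.8, its ratio to the stomach was −0.43, and *Chrdl1* had no UMI left.

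Between E15 and the pup, 8 of 15 combinations in fibroblasts reached 50 UMIs, of which 3 were past 2-fold higher in the pup and 1 at E15, against 9.23% and 12.6% of all genes. Some reached the minimum mainly through 1 stage, such as *Grem1* in the GE-SCJ with 58 pup and 9 E15 UMIs and *Fst* in the esophagus with 5 and 140. The count describes only those that passed. Below the minimum, *Bmper* in the esophagus had 14 pup and 10 E15 UMIs (log2 ratio 3.05, 1.83 to 4.32). *Grem1* rose 56.5-fold in the GE-SCJ, from 2.39 to 147 CPM (log2 ratio 5.82, 4.84 to 6.95), and 4.89-fold in the stomach, from 19.9 to 96.3 CPM (2.29, 1.72 to 2.84). The GE-SCJ level of *Grem1* also lay between at E19, at 10.8 CPM. In the esophagus *Grem1* went from 3.41 to 11.1 CPM (1.79, 0.33 to 3.15), under the minimum with 13 UMIs at E15 and 7 in the pup. *Chrdl1* rose 2.47-fold in the GE-SCJ (1.31, 0.41 to 2.12), and *Fst* fell by 1.95 on the log2 scale in the esophagus (−3.42 to −0.80). The 58 *Grem1* UMIs of the pup GE-SCJ came from 16 of 82 fibroblasts.

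Read cell by cell, *Grem1* had at least 1 UMI in 26.0% of smooth muscle cells and 5.81% of fibroblasts, against 0.565% of 354 immune cells, which mark the background. The shares were 33.6%, 9.01% and 1.13% for *Fst*, 32.9%, 16.3% and 1.13% for *Chrdl1*, 13.2%, 2.21% and 0% for *Nog* and 9.64%, 2.09% and 0% for *Bmper*. No UMI in 354 immune cells allows a share of up to 0.847%. Median depths were 9837, 8940 and 8266.5 UMIs. With each cell thinned to 5000 UMIs, which left out 198 smooth muscle cells, 502 fibroblasts and 101 immune cells, the *Grem1* shares were 20.7%, 4.25% and 0.395%, and for each antagonist the share in smooth muscle stayed above that in fibroblasts.

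At least 1 antagonist was found in 646 of 1027 smooth muscle cells (62.9%) and 29.7% of fibroblasts, and at least 2 in 33.6% and 5.43%. After thinning, the shares with at least 1 were 57.3% and 21.4%, and with at least 2 they were 24.1% and 2.69%. All 5 antagonists were found in 11 smooth muscle cells at their own depth and in 0 after thinning. The 52 smooth muscle cells (5%) with most UMIs of a gene held 53.9% of its UMIs for *Grem1*, 43.1% for *Fst*, 43.6% for *Chrdl1*, 60.6% for *Nog* and 68.2% for *Bmper*. Cells were ranked by the gene's own UMIs, which raises these shares where UMIs are few, as for *Nog* (213) and *Bmper* (148). No share under an even spread is given, so the shares do not show an uneven spread. *Grem1* was found more often in smooth muscle cells with *Chrdl1* than in those without it. Of smooth muscle cells with *Chrdl1*, 155 of 338 (45.9%) had *Grem1*, against 16.3% of those without it, and 40.4% against 14.6% after thinning. Shares within each prenatal region and stage are at the cells' own depth and are not given after thinning. In the esophagus at E19, 35 of 42 smooth muscle cells had *Chrdl1*, so few were without it. The order was the same within each region and stage, with 49.3% against 11.5% in the esophagus at E15, 85.7% against 42.9% at E19, 34.1% against 14.4% and 29.5% against 13.7% in the GE-SCJ, and 70.8% against 44.4% and 47.4% against 23.8% in the stomach. *Grem1* and *Fst* did not show this, with *Grem1* in 29.9% of cells with *Fst* and 24.0% of those without, and 17.8% against 22.1% after thinning. *Fst* and *Nog* did, with *Fst* in 58.1% of cells with *Nog* and 29.9% of those without, and 52.5% against 29.4% after thinning. For *Fst* and *Chrdl1* the difference was lost on thinning, with *Fst* in 41.1% against 29.9% before and 30.3% against 31.4% after it. These shares with *Fst* pool regions and stages whose levels differ, and are not given within them. They may follow region and stage, which was not tested.

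**Figure D4:**
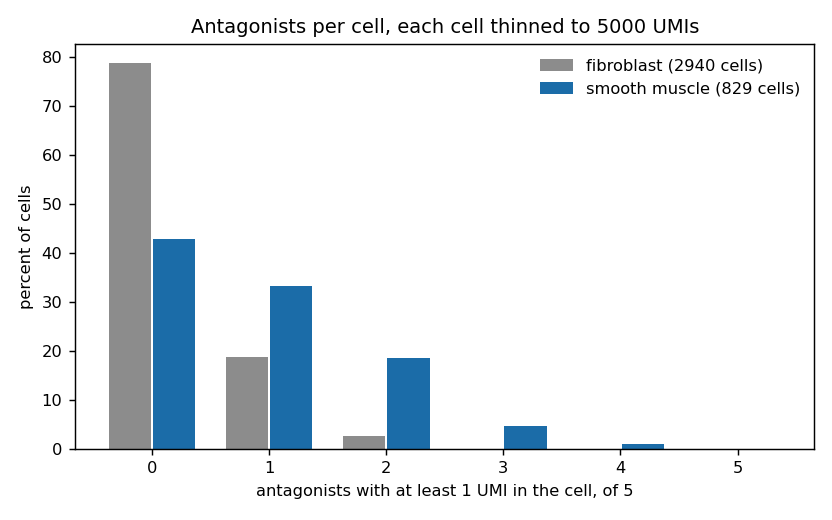
Percent of cells (y) by the number of antagonists, of 5, with at least 1 UMI (x), for 2940 fibroblasts (grey) and 829 smooth muscle cells (blue), each cell thinned to 5000 UMIs. Cells with at least 2 antagonists make up 24.1% of smooth muscle and 2.69% of fibroblasts.

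On the epithelial side, the Id genes were read in stomach columnar and esophageal squamous cells at E15, E19 and pup, where all 12 combinations reached 50 UMIs. Of these, 8 were past 2-fold higher in stomach columnar cells and 0 in esophageal squamous cells, against a background of 15.4% and 10.6% of all genes. *Id1* was at 240.1 CPM (225 to 256) at E15, 439 (426 to 452) at E19 and 159 (152 to 166) in the pup in stomach columnar cells, against 62.1 (47.5 to 79.8), 75.5 (63.0 to 89.7) and 41.1 (29.4 to 56.0) in esophageal squamous cells. No intervals overlapped, and the log2 ratios were 1.93 (1.56 to 2.32), 2.53 (2.28 to 2.79) and 1.92 (1.47 to 2.40). *Id3* was at 217 (203 to 232), 283 (272 to 293) and 135 (129 to 142) against 52.9 (39.5 to 69.4), 41.0 (31.9 to 51.7) and 59.6 (45.3 to 77.1), with log2 ratios of 2.01, 2.77 and 1.16. The pup ratio of *Id3* was short of 2-fold, at 0.49, without the 29 cells of the authors' second squamous label and at 0.88 with a median-of-ratios scaling, and that of *Id1* was 1.26 without this label. *Id4* was at 139 (128 to 152), 46.3 (42.1 to 50.8) and 15.7 (13.5 to 18.1) against 17.3 (10.1 to 27.7), 5.85 (2.81 to 10.8) and 10.3 (4.93 to 18.9), so that it was 7.62-fold and 7.21-fold higher before birth and 1.39-fold in the pup (log2 ratio 0.48, −0.39 to 1.51). *Id2* went the other way in part, with log2 ratios of 0.20 (−0.05 to 0.46), −0.39 (−0.53 to −0.24) and −0.90 (−1.02 to −0.77). Without the second squamous label, the *Id2* ratio was −0.09 at E19 and 2.16 in the pup. With a median-of-ratios scaling in place of total UMIs, the split was 7 higher in stomach columnar and 1 in esophageal squamous cells.

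**Figure D5:**
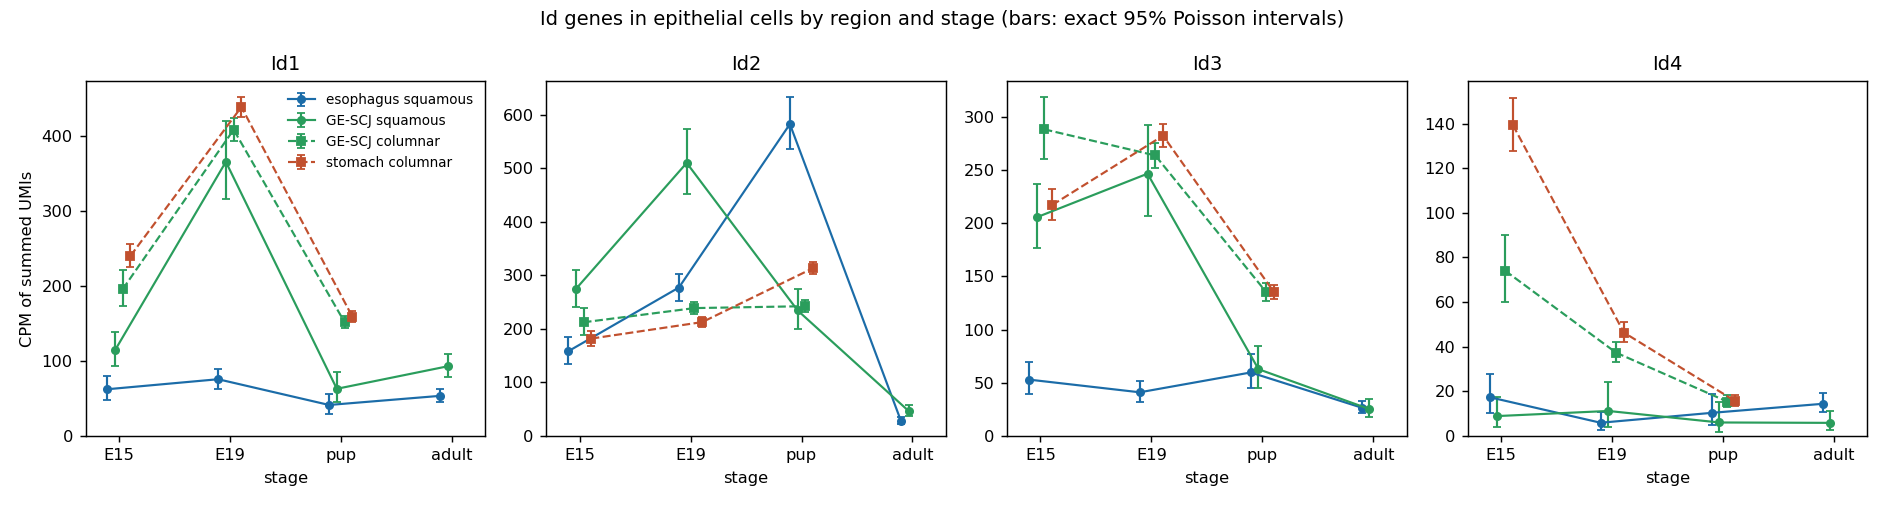
CPM of the 4 Id genes (panels) by stage in esophageal squamous (blue), GE-SCJ squamous (green, solid), GE-SCJ columnar (green, dashed) and stomach columnar cells (red), with exact 95% Poisson intervals as bars. *Id1*, *Id3* and *Id4* are lowest or near lowest in esophageal squamous cells before birth, and *Id2* peaks there in the pup at 583 CPM. The adult GE-SCJ columnar group of 19 cells is not drawn.

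At the GE-SCJ both epithelia could be compared within a region. *Id1* in GE-SCJ columnar cells was at 196 CPM (173 to 221) at E15, 408 (394 to 424) at E19 and 152 (143 to 160.2) in the pup, and in GE-SCJ squamous cells at 114 (93.0 to 138), 366 (316 to 420.4) and 62.7 (45.2 to 84.8), with log2 ratios of columnar over squamous cells of 0.77, 0.15 and 1.24. *Id3* had ratios of 0.48, 0.09 and 1.08, and *Id2* of −0.37, −1.10 and 0.04. GE-SCJ squamous cells thus lay closer to GE-SCJ columnar than to esophageal squamous cells for *Id1* and *Id3* at E19, where esophageal squamous cells were at 75.5 and 41.0 CPM. The 34 GE-SCJ squamous cells of E19 had columnar markers at a summed 3741 CPM and squamous markers at 10739, against 2596 and 16090.1 in the esophageal squamous cells of E19. Smooth muscle markers were at 1023 against 132 CPM and *Rgs5* at 52.0 against 1.17, and the part of these markers in the Id levels was not tested. *Id4* separated both epithelia before birth, at 74.0 CPM (60.1 to 90.2) against 8.85 (3.82 to 17.4) at E15 and 37.3 (32.9 to 42.0) against 11.1 (4.09 to 24.2) at E19, with log2 ratios of 2.91 and 1.53.

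From E15 to the pup, 14 of 16 combinations of Id gene and epithelial population reached 50 UMIs, of which 1 was past 2-fold higher in the pup and 4 at E15. Over all genes 8.46% were higher in the pup and 22.3% at E15, with a median log2 ratio of −0.42, and with a median-of-ratios scaling the Id genes split 2 and 3 and all genes 13.7% and 10.3%. The Id counts are therefore near that background. *Id4* fell by 3.15 on the log2 scale (−3.40 to −2.90) in stomach columnar and by 2.27 (−2.66 to −1.88) in GE-SCJ columnar cells, and the E19 level lay between in both. *Id3* fell by 1.69 in GE-SCJ squamous (−2.20 to −1.20) and by 1.10 in GE-SCJ columnar cells (−1.26 to −0.92). *Id1* was not past 2-fold between E15 and the pup, but peaked at E19 in stomach columnar, GE-SCJ columnar and GE-SCJ squamous cells, each above both other stages without overlap of the intervals.

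The combination that was higher in the pup was *Id2* in esophageal squamous cells, which went from 158 CPM (134 to 185) at E15 and 277 (253 to 303) at E19 to 583 (536 to 633) in the pup (log2 ratio 1.88, 1.62 to 2.14). The pup cells carry both squamous labels of the authors, and this level belonged to the second. Its 29 cells held *Id2* at 1314 CPM (1205 to 1431), with UMIs in 28 of them, whereas the 56 cells of the first label held 68.3 (48.6 to 93.4). With the first label alone the ratio to E15 turned to −1.18, and the ratio of stomach columnar over esophageal squamous cells in the pup from −0.90 to 2.16. The 29 cells held *Krt13* at 6915 CPM, *Krt5* at 12.4 and no UMI of *Trp63*, the transcription factor of basal squamous cells, against 1456, 732 and 333 CPM in the 56. The other Id genes were low in the 29 cells, with *Id1* at 7.47 CPM (1.54 to 21.8), *Id3* at 9.96 (2.71 to 25.5) and no UMI of *Id4*, against 64.8, 94.6 and 17.5 in the 56. The labels were looked at apart after the pup level was seen. In adult esophageal squamous cells *Id2* was at 28.4 CPM (22.8 to 34.8) and in adult GE-SCJ squamous cells at 46.4 (36.3 to 58.4).

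In the adult, the other Id genes of squamous cells were at 53.3 CPM (*Id1*), 26.5 (*Id3*) and 14.3 (*Id4*) in the esophagus and at 92.8, 25.1 and 5.80 in the GE-SCJ. The 19 adult GE-SCJ columnar cells had *Id1* at 367 CPM and *Id4* at 34.3. Without the 10 cells with mostly prenatal neighbours, *Id1* was at 155 and *Id4* at 0.

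The Id genes were also read in the cells that carry the antagonists. Against the epithelium of the same region and stage, 49 of 52 combinations in fibroblasts reached 50 UMIs, of which 13 were past 2-fold higher in fibroblasts and 12 in epithelium. The background is the same as for the antagonists, 23.2% and 12.1% of all genes, so the Id genes were not shifted to fibroblasts as a group. Their share higher in epithelium lay above that background, and their median log2 ratio was −0.20 against 0.22 over all genes. With a median-of-ratios scaling the split was 10 and 14. *Id3* was higher in fibroblasts in each of the 13 pairs, with log2 ratios of 0.53 to 2.91. *Id1* ratios to stomach and GE-SCJ columnar cells at E15, E19 and pup were all below 0, the farthest at E19, −1.89 (−1.9998 to −1.78) in the stomach and −1.81 (−1.93 to −1.69) in the GE-SCJ. In the GE-SCJ at E15 the *Id1* intervals overlapped, at 181 CPM (167 to 195) in fibroblasts and 196 (173 to 221) in columnar cells. *Id4* at E15 was 10.7-fold lower in stomach fibroblasts than in columnar cells, at 12.8 CPM (9.49 to 17.0) against 139, and in the pup 2.70-fold higher, at 40.3 (23.9 to 63.7). Without the 12 pup stomach fibroblasts with mostly prenatal neighbours, that level was 8.19 CPM, *Id1* went from 80.6 to 38.2 and *Id3* from 309 to 213.

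Smooth muscle held more of *Id2* and *Id4* than fibroblasts, in a comparison added after the levels were seen. Of 37 combinations with 50 UMIs, 21 were past 2-fold higher in smooth muscle and 1 in fibroblasts, against 6.45% and 11.8% of all genes. *Id2* in the esophagus was at 880.4 CPM (827 to 937), 811 (731 to 897), 794 (639 to 975) and 321 (242 to 418) in smooth muscle from E15 to the adult, against 76.9 (68.4 to 86.2), 140.0 (131 to 149), 174 (143 to 209) and 68.1 (34.0 to 122) in fibroblasts. The ratios were 11.4-fold, 5.80-fold, 4.58-fold and 4.40-fold, and the ranges did not overlap. In the stomach the *Id2* log2 ratios were 0.99 (0.84 to 1.13), 0.50 (0.35 to 0.65) and 0.81 (0.45 to 1.18), all short of 2-fold. *Id4* was past 2-fold higher in smooth muscle in all 9 pairs with 50 UMIs, with log2 ratios of 1.18 to 5.37, of which the 2 above 5 rest on 1 fibroblast UMI each. *Id3* differed in both directions at E19, at 342 CPM against 162 in the esophagus (log2 ratio 1.08, 0.84 to 1.32) and 158 against 408 in the stomach (−1.36, −1.54 to −1.19). Under other settings these ratios came to 0.985 and −0.997, just short of 2-fold.

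Between esophageal and stomach fibroblasts, also compared after the levels were seen, 11 of 12 combinations of Id gene and stage reached 50 UMIs, with 0 past 2-fold higher in the esophagus and 5 in the stomach (3.11% and 4.02% of all genes). *Id1* was at 44.4 CPM (37.9 to 51.6) and 31.7 (27.6 to 36.1) in esophageal fibroblasts at E15 and E19, against 169 (156 to 182) and 118 (110.3 to 127) in the stomach, or 3.79-fold and 3.73-fold. *Id3* was 2.68-fold and 2.52-fold higher in the stomach at these stages, and *Id2* 2.97-fold at E15. In the pup the log2 ratios of esophagus over stomach were −0.27 (−0.94 to 0.40) for *Id1*, −0.27 (−0.68 to 0.15) for *Id2* and 0.53 (0.24 to 0.84) for *Id3*, none past 2-fold. GE-SCJ fibroblasts before birth lay with the stomach, at 181 and 116 CPM for *Id1* and 529.8 and 446 for *Id3*.

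Set side by side, the antagonists summed over the 5 genes and the epithelial *Id1* and *Id3* summed gave the following levels. Esophageal smooth muscle held 481 CPM of antagonists at E15 and 515 at E19, fibroblasts 66.9 and 44.4, and the squamous cells above them 115 and 116 CPM of *Id1* and *Id3*. The 20 columnar cells of the E19 esophagus, of which 6 had mostly postnatal neighbours, held 410 CPM (360 to 464) of *Id1* and *Id3*. Stomach smooth muscle held 409 and 239.8 CPM, fibroblasts 111 and 82.9, and columnar cells 457 and 721. GE-SCJ smooth muscle held 422 and 288 CPM, fibroblasts 48.3 and 62.2, squamous cells 319.6 and 612, and columnar cells 484 and 672. Before birth, the summed antagonists were lower in fibroblasts and higher in smooth muscle of the esophagus than of the stomach. In esophageal smooth muscle, *Chrdl1* gave 292 of 545 antagonist UMIs at E15 and 129 of 238 at E19. *Fst* was higher in stomach smooth muscle at E15 and E19, and *Grem1* was higher there at E15 and lower at E19. Esophageal squamous cells had less *Id1* and *Id3* than stomach columnar cells, a comparison in which organ and cell class differ together. The GE-SCJ had more epithelial *Id1* and *Id3* than the esophagus at E15 and E19. Its fibroblasts had less antagonist than those of either organ at E15 and lay between them at E19. Its smooth muscle lay between those of both organs at E19. At E15 its smooth muscle interval (392 to 454) overlapped those of the stomach (379 to 441) and the esophagus (441 to 523). In the pup, stomach smooth muscle was at 308 CPM, fibroblasts at 175 and columnar *Id1* and *Id3* at 294, and in the pup esophagus smooth muscle, fibroblasts and squamous cells were at 105 (12 UMIs), 78.0 and 101. In the pup GE-SCJ, fibroblasts were at 218 CPM (175 to 270) and smooth muscle at 177 (144 to 215). *Id1* and *Id3* were there at 125 in squamous and 287 in columnar cells. With 11 region and stage groups that share a pool, no relation between both sides was computed.

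The wider BMP pathway was described by a list of 64 genes, of which 62 were in the table. Between esophageal and stomach fibroblasts, 121 combinations of gene and stage reached 50 UMIs, of which 21 were past 2-fold higher in the stomach and 9 in the esophagus, against 4.02% and 3.11% of all genes. The ligands of the list accounted for 10 of the 21 and 1 of the 9, in 18 combinations. No gene of the list was past 2-fold in the same direction at all 3 stages there. Between stomach columnar and esophageal squamous cells, 97 combinations reached 50 UMIs, with 8 higher in columnar and 35 in squamous cells, against 15.4% and 10.6% of all genes, and extracellular modulators accounted for 2 and 19 of these in 23 combinations. Where *Id1* and *Id3* were higher, in stomach columnar cells, the ligand *Bmp2* was too, at 40.7, 85.0 and 37.0 CPM against 9.16, 5.85 and 6.17 (log2 ratios 2.01, 3.73 and 2.37). Another 7 genes of the list were higher in esophageal squamous cells at the 3 stages, among them *Smoc2*, a secreted matrix protein, at 172, 90.7 and 93.6 CPM against 9.84, 8.80 and 4.03, and the ligand *Bmp7* at 55.0, 25.7 and 13.4 against 21.5, 11.0 and 4.29. The others were *Fstl1*, *Nbl1*, *Bmp1*, *Gpc3* and *Rgma*. The esophageal squamous cells also carried more stromal markers, at a summed 1872, 1360 and 369 CPM at E15, E19 and pup. In stomach columnar cells these markers were at 371, 440 and 224 CPM. Their part in the split of the list was not tested. In smooth muscle of both organs 76 combinations of the list split into 6 higher in the esophagus and 8 in the stomach (3.9% and 6.31% of all genes). Between pup and E15 epithelium, 6 of 109 were higher in the pup and 34 at E15 (8.46% and 22.3% of all genes).

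The genes with the most similar pattern were named by Pearson's r of log2(CPM + 10) over 54 groups of class, region and stage, among 11548 genes. The groups share a pool and differ in depth, and r is a description. *Grem1* was closest to *Psd* (0.84), *Hspb7* (0.83) and *Rspo3* (0.82), *Chrdl1* to *Il17d* (0.89), *Psd* (0.85) and *Foxf2* (0.84), and *Nog* to *Tnn* (0.87), *Actc1* (0.84) and *Eva1a* (0.83). *Fst* was closest to *Cspg4* (0.78), *Ptms* (0.76) and *Tmem200a* (0.76), and *Bmper* to *Cdon* (0.79), *Wnt9a* (0.78) and *Rspo1* (0.75). Of the Id genes, *Id1* was closest to the genes of mitochondrial proteins *Chchd2* (0.72), *Ndufs4* (0.70) and *Ndufa10* (0.69), *Id2* to *Nedd4l* (0.64), *Tbc1d1* (0.62) and *Zfp787* (0.62), *Id3* to *Pakap.1* (0.74), *Pard3b* (0.72) and *Cnn3* (0.72), and *Id4* to *Bche* (0.76), *Slc25a23* (0.76) and *Smpd2* (0.75). Among the 9 genes, *Grem1* and *Chrdl1* had an r of 0.82, *Nog* and *Fst* of 0.78, *Id3* and *Id4* of 0.49, and *Id1* and *Id3* of 0.48. Pairs of an antagonist and an Id gene reached 0.52, for *Grem1* and *Id4*. Without the smooth muscle groups, over 44 groups, the r of *Grem1* with *Psd* was 0.68, the r of *Nog* fell to 0.24 with *Actc1* and to 0.52 with *Tnn*, and that of *Id2* with *Nedd4l* to 0.40. Other pairs did not fall, such as *Chrdl1* with *Il17d* (0.895), *Bmper* with *Rspo1* (0.86) and *Id1* with *Chchd2* (0.75).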

How the data were processed

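Cells of esophagus, GE-SCJ and stomach were tagged by region and stage, pooled and sequenced as one 10x Genomics 3′ CellPlex experiment. The authors aligned reads and assigned tags with Cell Ranger 6.1.1 (multi) on the mm10 reference (GRCm38), screened out barcodes by genes, UMIs and mitochondrial share as doublets or poor cells, and deposited whole-number counts of UMIs per gene and cell. They also deposited a list with the tag, cluster label and totals of each cell, from which the region, stage and class were taken here. The list gives, as deposited by the authors, the percent of each cell's UMIs from mitochondrial genes, which was at most 19.7%. No doublet caller was run here.

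UMI counts were summed over the cells of each class, region and stage (2302227 to 20070615 UMIs per region and stage) and given as CPM with exact 95% Poisson intervals, and shares of cells with exact Clopper-Pearson intervals. With 1 sample per group no test was made. A combination counted as past 2-fold from 50 UMIs over both groups and 20 cells in each. The 9 genes and the gene lists were chosen with earlier results of these data known. The genes named beside them were the 3 with the highest r per member, and the pathway genes those past 2-fold in the same direction at all 3 stages. Alternatives changed the scaling, minima, fold, cell filter and class assignment. 3 comparisons and the leaving out of the second squamous label were added after seeing the data. Scripts were tested on simulated data with Python 3.11.15, with scipy 1.17.1 for the intervals, scikit-learn 1.9.0 for the neighbours, pandas 2.3.3 and numpy 2.4.6 for the sums and matplotlib 3.10.9 for the plots.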

Additional observations from a re-analysis of the deposited data

Results flagged for a closer look

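Some effects had opposite signs under the same contrast in different regions or stages. Each group is a single pooled sample, and these differences were not tested. *Grem1* in the GE-SCJ was higher in smooth muscle than in fibroblasts at E15 (log2 ratio 3.89) and E19 (1.29) and lower in the pup (−3.42). *Grem1* in smooth muscle was higher in the esophagus than in the stomach at E19 (1.75) and lower in the pup (−1.02). *Chrdl1* in smooth muscle was higher in the esophagus than in the stomach at E15 (2.17) and E19 (3.02) and lower in the pup (−1.93). From E15 to the pup, *Chrdl1* in smooth muscle changed by −2.89 in the esophagus, 1.04 in the GE-SCJ and 1.21 in the stomach. The pup esophagus holds 22 smooth muscle cells with 8 *Grem1* and 3 *Chrdl1* UMIs.

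*Id3* at E19 was higher in smooth muscle than in fibroblasts in the esophagus (1.08) and lower in the stomach (−1.36). *Id4* in fibroblasts changed from E15 to the pup by −2.06 in the GE-SCJ, where 1 UMI was left, and by 1.70 in the stomach, where it was at 40.3 CPM with and 8.19 CPM without the 12 cells with mostly prenatal neighbours.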

How the results depend on the processing

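Of 114 alternative counts of combinations past 2-fold, 105 stayed within 1.5 times the reported count and 9 did not. With no minimum of UMIs, the antagonists past 2-fold between fibroblasts and epithelium went from 21 to 54, between smooth muscle and fibroblasts from 21 to 38, between esophageal and stomach fibroblasts from 4 to 10 (7 with a minimum of 20 UMIs), and between E15 and pup fibroblasts from 4 to 9. At 3-fold, the Id combinations between fibroblasts and epithelium went from 25 to 11 and those between esophageal and stomach fibroblasts from 5 to 2. With at least 50 cells per group, antagonists between both organs' smooth muscle went from 7 to 2 and Id genes between smooth muscle and fibroblasts from 22 to 14, since fewer pairs of groups were left.

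Of 1419 alternative log2 ratios, 4 changed sign. *Id2* without the second squamous label was at −1.18 for pup over E15 and at 1.32 for fibroblasts over squamous cells in the pup esophagus, as the 29 cells left out hold most of its UMIs. For *Id4* in pup fibroblasts over columnar cells, the ratio was 2.68 in the GE-SCJ with classes assigned from marker genes and −0.51 in the stomach without cells with mostly neighbours from the other side of birth, and the cause was not tested. Of 888 alternatives to the 122 ratios past 2-fold, 27 were short of it, of which 6 concern *Grem1* in esophageal over stomach smooth muscle of the pup. No paired analysis was possible because each region and stage is 1 pooled sample without replicates. Depth limits *Nog*, *Bmper* and all adult mesenchymal values, which rest on few UMIs.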

Other observations

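In the 139 cells of the second stromal label, *Bmper* was found in 36.0% of cells and *Fst* in 27.3%, against 2.09% and 9.01% of fibroblasts. After thinning to 5000 UMIs the *Bmper* shares were 18.3% and 1.12%. The mesothelial markers of the list summed to 1176 to 2689 CPM in the 4 groups of these cells. In groups of other classes they summed to at most 424 CPM, in the pup esophageal squamous cells. The stromal markers summed higher, at 5923 to 12517 CPM, so the mesothelial list was the highest class list in 0 of 4 groups. No cell type is named for these cells here. *Fst* was also found in 8.59% of 419 cells with a neural label, and in 8.04% after thinning. Of these 419 cells, 201 (48.0%) were neural by markers, and stromal markers reached 10824.6 CPM against 2546 for neural ones in the pup esophagus.

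*Id1* had a UMI in 84.6% of columnar, 38.4% of squamous and 21.2% of immune cells, at median depths of 25118, 11996.5 and 8266.5 UMIs. After thinning, the shares were 58.2%, 24.3% and 13.4%.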
